A study of Mus musculus with 9 samples.

Results

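The 3 cultures carrying the hairpin shCNKSR2_2 were set directly against the 3 carrying shCNKSR2_1, 2 short hairpin RNAs of different sequence aimed at the same transcript, Cnksr2. The comparison covered 10340 genes, which is every gene of the expression table, in 6 of the 9 libraries of the study. The other 3 libraries, named shControl, carried a hairpin against red fluorescent protein, which mouse cells lack, and serve here as the common reference point. All 9 cultures were NIH 3T3 cells, a mouse embryonic fibroblast line grown as a monolayer on plastic, infected with a lentivirus and selected for it, so infection and selection are common to every group. Per the labels the 3 cultures of a group were independent. Their ages in culture, the extent of knockdown and the sequences of the hairpins are not given in the sources used here. The level of Cnksr2 was not analysed here, so neither hairpin's effect on its target can be stated and differences between the hairpins cannot be set beside it.

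Cnksr2 encodes a scaffold protein, known best from neurons, that binds components of the Ras to ERK kinase cascade and holds them near the membrane. A hairpin RNA is cut by Dicer into a short duplex, and 1 strand then guides the silencing complex to matching transcripts. Hairpins against 1 target therefore share the intended transcript and differ in their own sequence. NIH 3T3 cells, like other fibroblasts, make and assemble a collagen-rich matrix, pull on it through actin and myosin, and secrete growth factors and chemokines.

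Expression is given as FPKM, fragments per kilobase of transcript, scaled to the number of mapped fragments in the library. Tests ran on log2(FPKM + 1) in 1 limma model over all 9 libraries, and a gene is said to be called, or to have risen or fallen, at a Benjamini-Hochberg adjusted p under 0.05 over the 10340 genes. Differences are shCNKSR2_2 minus shCNKSR2_1 on that log2 scale unless another pair is named, and the addition of 1 makes them smaller than the plain ratio for genes near 1 FPKM. Library depth is unknown. The sum of a library ran from 437208 to 450776 FPKM. Along the leading principal component (67.5% of variance) the shControl libraries lay between -16.8 and -16.1 and the shCNKSR2_2 libraries between 13.4 and 13.8. The shCNKSR2_1 libraries lay between those groups, replicates 2 and 3 at 5.98 and 4.63 and replicate 1 apart from them at -1.71. Results without shCNKSR2_1 replicate 1 are therefore also given for a part of the calls and counts. Others changed without it too, so a count given without that value is not to be read as unaffected. All 13 fibroblast markers looked for were in the table, and those of endothelial, epithelial and skeletal muscle cells were not. Of 8 macrophage markers only Cd68 and Cd14 were present, at a summed level of 7.47 to 8.97 FPKM over all 9 libraries.

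Between the hairpins 2121 genes (20.5% of those tested) were called, 944 (9.13%) higher and 1177 (11.4%) lower with shCNKSR2_2. Most of these differences were small, and the median size of a difference over all genes was 0.0741 on the log2 scale. Called differences of at least 1.5-fold on that scale were found for 116 genes (1.12%), of which 25 rose (0.242%) and 91 fell (0.88%), and of at least 2-fold for 2 that rose (0.0193%) and 19 that fell (0.184%). Without shCNKSR2_1 replicate 1, 1505 of the 2121 genes were still called in the same direction. Leaving out shCNKSR2_2 replicate 2 left 1231 calls and leaving out its replicate 3 left 1208. Against shControl the same model called 3396 genes (32.8%) with shCNKSR2_1 and 4984 (48.2%) with shCNKSR2_2. With no test, the libraries of the hairpins did not overlap for 1906 genes (18.4%) higher and 2013 (19.5%) lower with shCNKSR2_2. Statements below that the hairpin groups did not overlap are to be read beside these shares.

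**Figure D1:**
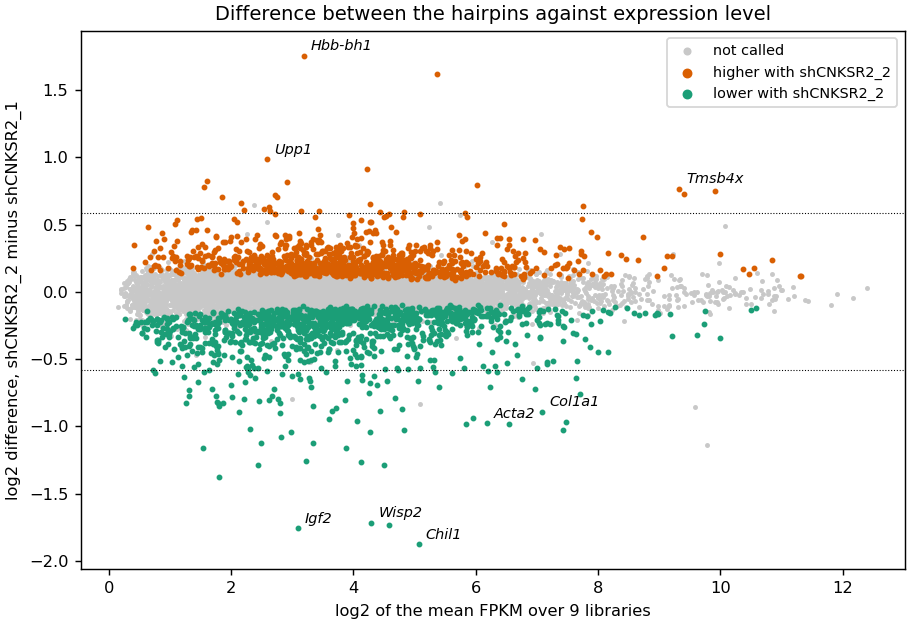
Each point is a gene, with log2 of its mean FPKM over the 9 libraries on the horizontal axis and the log2 difference between the hairpins on the vertical axis. Dotted lines mark 1.5-fold, and the points beyond them are mostly below the axis, 91 called genes lower against 25 higher. Unlabelled grey points far from 0 are genes whose libraries varied too much to be called.

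Several of the genes that fell farthest with shCNKSR2_2 encode secreted or surface proteins. Chil1, a secreted chitinase-like protein, was at 27.3, 16.8 and 16.9 FPKM in the shCNKSR2_1 libraries and at 4.37, 5.03 and 4.60 FPKM in the shCNKSR2_2 libraries. The hairpin groups did not overlap, and both lay below shControl, where Chil1 was at 73.3 to 77.4 FPKM. Its mean was 4.35-fold higher with shCNKSR2_1, a log2 difference of -1.88 ± 0.14 (SE, n = 3 per group; limma adjusted p = 3.61e-05). Rasl11a, a small GTPase of the Ras family, showed the same order of groups. It was at 48.7 to 51.7 FPKM with shControl, at 24.7, 12.9 and 14.8 FPKM with shCNKSR2_1 and at 4.33, 4.13 and 4.66 FPKM with shCNKSR2_2. The log2 difference between the hairpins was -1.73 ± 0.17 (SE; limma adjusted p = 0.000162).

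Wisp2, a matricellular protein of the CCN family, was at 20.2, 12.9 and 13.8 FPKM with shCNKSR2_1 and at 3.90, 4.04 and 3.98 FPKM with shCNKSR2_2. Every shCNKSR2_2 library was thus below every shCNKSR2_1 library, and the difference was -1.72 ± 0.12 (SE; limma adjusted p = 2.94e-05). Dio2, the deiodinase that activates thyroid hormone, was at 6.70, 3.81 and 3.46 FPKM and at 1.15, 1.42 and 1.19 FPKM, a difference of -1.29 (limma adjusted p = 0.000526). In this gene and in Chil1, Rasl11a and Wisp2 shCNKSR2_1 replicate 1 was the highest of its group and the nearest to shControl. The calls held without that library, with differences of -1.66 for Chil1, -1.47 for Rasl11a, -1.53 for Wisp2 and -1.04 for Dio2.

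Spon2, a secreted matrix protein of the spondin family, had another pattern. It was at 12.1, 11.6 and 12.5 FPKM with shControl, at 33.9, 24.7 and 27.5 FPKM with shCNKSR2_1 and at 10.9, 12.2 and 10.7 FPKM with shCNKSR2_2. Only the shCNKSR2_1 libraries stood away from shControl, whose range the shCNKSR2_2 libraries overlapped, and the hairpins differed by -1.27 ± 0.09 (SE; limma adjusted p = 3.19e-05). Igfbp4, a binding protein of insulin-like growth factors, was at 9.69, 4.74 and 4.48 FPKM with shCNKSR2_1 and at 1.53, 1.78 and 1.73 FPKM with shCNKSR2_2. It rose from shControl with shCNKSR2_1 by 1.02 (limma adjusted p = 0.00253), and its change with shCNKSR2_2 did not pass the test, at -0.36 (adjusted p = 0.154). The other genes of the 12 that fell farthest were Igf2, described below, Ly6a (-1.29), a surface antigen of mesenchymal and blood progenitors, Aldh3a1 (-1.26), an aldehyde dehydrogenase, Retn (-1.16), the hormone resistin, Igsf10 (-1.16), an immunoglobulin-domain protein, and Rnase4 (-1.12), a secreted ribonuclease.

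The genes that rose farthest were fewer and of mixed kinds. Hbb-bh1, an embryonic beta-globin gene, was at 3.23 to 3.46 FPKM with shControl, at 4.16, 5.16 and 5.61 FPKM with shCNKSR2_1 and at 18.2, 20.04 and 18.9 FPKM with shCNKSR2_2. The 3 groups did not overlap, the mean was 3.83-fold higher with shCNKSR2_2 than with shCNKSR2_1, and the log2 difference was 1.75 ± 0.08 (SE; limma adjusted p = 1.84e-06). Of the other 8 erythroid markers looked for, among them Alas2, Gata1 and the adult globin genes, none was in the table. Map2, a microtubule-associated protein typical of neurons, was at 1.73, 2.35 and 2.27 FPKM with shCNKSR2_1 and at 4.27, 4.10 and 4.58 FPKM with shCNKSR2_2, 0.78 higher (limma adjusted p = 0.000137). Tubb3, the neuronal beta-tubulin, rose by 0.40 (adjusted p = 0.0101), and 5 further neuron markers, Snap25 among them, were not in the table.

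Tmsb4x, thymosin beta-4, which binds actin monomers, was 1 of the most abundant genes that differed. Its levels were 475 to 529 FPKM with shControl, 439, 612 and 528 FPKM with shCNKSR2_1 and 844, 911 and 911 FPKM with shCNKSR2_2. The shCNKSR2_1 libraries spanned the shControl range and the shCNKSR2_2 libraries lay above both, 0.77 ± 0.10 higher than shCNKSR2_1 (SE; limma adjusted p = 0.000594). Ngef (0.91), a guanine nucleotide exchange factor, Nppb (0.82), the natriuretic peptide BNP, and Brinp1 (0.72), a neuronal cell-cycle inhibitor, also rose. Called GC-linked here are 3 libraries in which the deviations of genes from their means over all 9 libraries correlated positively with transcript GC content. The measure is thus relative to the other libraries. These 3 were shControl replicate 3 (0.227), shCNKSR2_1 replicate 3 (0.387) and shCNKSR2_2 replicate 1 (0.159). The others were negative, down to -0.158 in shCNKSR2_2 replicate 2. The call for Nppb was lost when the GC-linked libraries were left out (limma adjusted p = 0.0791). Tnnt2, cardiac troponin T, was at 3.62, 9.20 and 7.08 FPKM and at 13.2, 10.9 and 11.3 FPKM. Its difference of 0.82 (adjusted p = 0.026) fell to 0.49 without shCNKSR2_1 replicate 1 and was not called without any 1 of the shCNKSR2_2 libraries, with adjusted p from 0.0566 to 0.0822.

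Among the 12 genes were 4 near-identical copies of the placental prolactin-like gene proliferin, Prl2c2, Prl2c3, Prl2c4 and Prl2c5, between which fragments cannot be assigned with certainty. Their summed level was 1899 to 2031 FPKM with shControl, 970, 1405 and 1293 FPKM with shCNKSR2_1 and 2121, 2014 and 2035 FPKM with shCNKSR2_2. The sum with shCNKSR2_2 overlapped shControl and that with shCNKSR2_1 was below both. Prl2c3 taken alone differed by 1.62 ± 0.30 (SE), from a mean of 24.5 ± 9.4 FPKM to 76.1 ± 27.0 FPKM (SD, n = 3), and its values are uncertain for that reason.

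**Figure D2:**
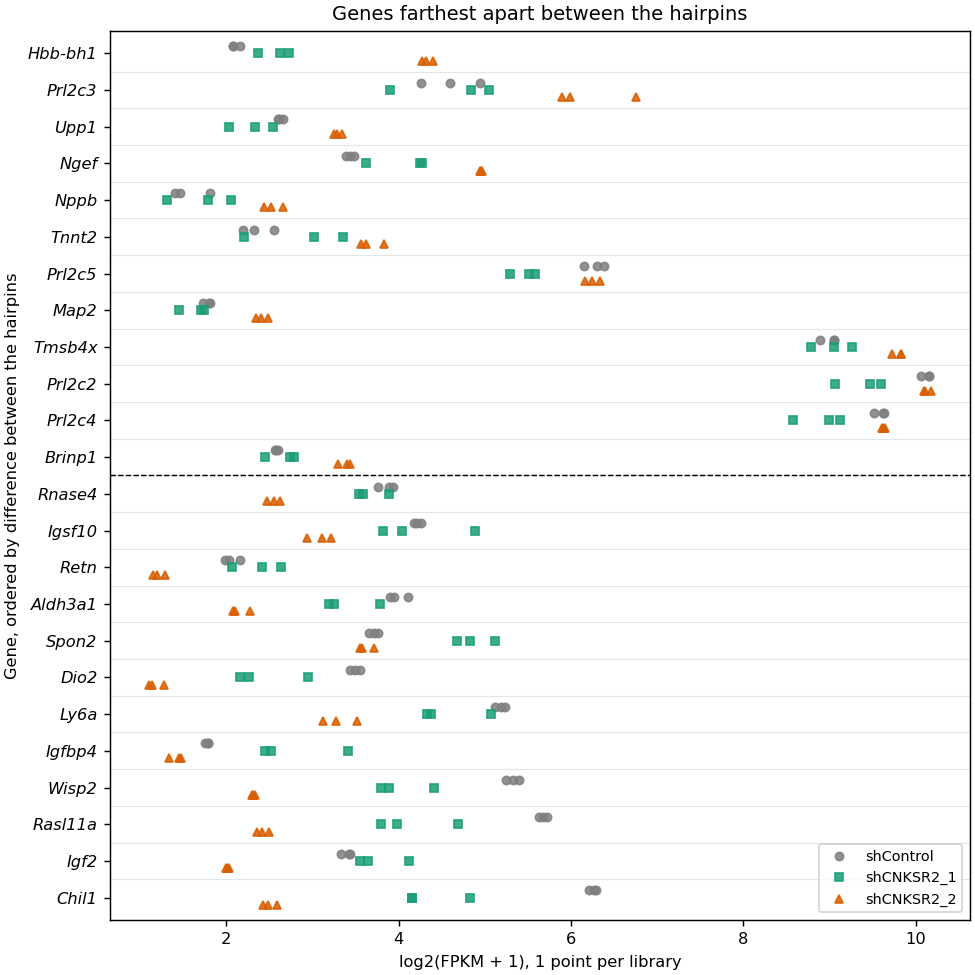
The 12 called genes that rose farthest (above the dashed line) and the 12 that fell farthest with shCNKSR2_2, with log2(FPKM + 1) on the horizontal axis and 1 point per library in each of the 3 groups. In all 24 genes, which were picked for the size of the difference, the 3 triangles of shCNKSR2_2 do not overlap the 3 squares of shCNKSR2_1. Over all genes this held for 1906 (18.4%) higher and 2013 (19.5%) lower with shCNKSR2_2. In Chil1, Rasl11a, Wisp2 and Dio2 the squares lie between the triangles and shControl.

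Genes of the extracellular matrix were lower with shCNKSR2_2 across most classes. Gene lists are read here against the background of 9.13% higher and 11.4% lower over all genes, whose median difference was -0.000606. That background of 944 higher and 1177 lower also fell with libraries left out. It was 677 and 936 without shCNKSR2_1 replicate 1. Without shCNKSR2_2 replicate 2 it was 500 and 731, and without its replicate 3 it was 503 and 705. List counts from those fits are to be read beside these numbers. Of 13 measured fibrillar and fibril-associated collagens 12 fell and 1, Col8a1, rose, with a median of -0.42. Col1a1, the main chain of type I collagen, was at 178, 144 and 157 FPKM with shCNKSR2_1 and at 86.0, 86.9 and 83.1 FPKM with shCNKSR2_2, against 153 to 178 FPKM with shControl. The shCNKSR2_1 libraries overlapped shControl and the shCNKSR2_2 libraries lay below both, by -0.89 ± 0.07 between the hairpins (SE; limma adjusted p = 6.35e-05). Col3a1, the type III chain, fell by 0.85 and Col6a2, of the beaded filaments of type VI collagen, by 0.59. Leaving out 1 library at a time left 9 to 12 of the collagens lower.

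Among 23 enzymes and chaperones that process or crosslink collagen 14 fell and 1 rose, with 2 higher without shCNKSR2_1 replicate 2 and 0 without shCNKSR2_2 replicate 3. Lox, which crosslinks collagen and elastin, was at 300, 201 and 203 FPKM with shCNKSR2_1 and at 127, 140 and 139 FPKM with shCNKSR2_2, a difference of -0.76 (limma adjusted p = 0.00185). The groups did not overlap, and shCNKSR2_1 replicate 1 was the highest of all 9 libraries. Pcolce (-0.52) and Adamts2 (-0.56), which act in cutting the procollagen ends, and Loxl1 (-0.49), a further crosslinking oxidase, also fell. Of 12 elastic fibre genes 7 fell and 0 rose (1 rose without shCNKSR2_1 replicate 2), with Mfap5 (-0.90), a microfibril protein, and Fbn1 (-0.47), fibrillin-1, among them. Proteoglycans and matricellular proteins gave 13 lower and 2 higher of 20 (1 higher without shCNKSR2_2 replicate 1 or 3), among the lower Has2 (-0.89), which makes hyaluronan, Sparcl1 (-0.85) and Wisp2.

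Basement membrane genes moved less uniformly, with 5 lower and 2 higher of 13. Nid2, which links laminin to type IV collagen, fell by 0.58, and Nid1, its close relative, rose by 0.28. Nid1 was at 158, 184 and 175 FPKM with shCNKSR2_1 and at 215, 207 and 204 FPKM with shCNKSR2_2, both below the 249 to 251 FPKM of shControl. Matrix proteases and their inhibitors gave 7 lower and 4 higher of 27, and 10 lower without shCNKSR2_1 replicate 1. Serpine2, an inhibitor of thrombin and plasminogen activators, fell by 0.65 and Plau, the urokinase-type plasminogen activator, by 0.46. Plau was above shControl with both hairpins, at 13.6 to 14.6 FPKM with shCNKSR2_1 and 9.64 to 10.3 FPKM with shCNKSR2_2 against 7.43 to 7.93 FPKM.

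The fibroblast markers themselves took part, and 10 of the 13 fell and 1, Vim, rose by 0.18, a call that was lost without any 1 library except shCNKSR2_1 replicate 2. Thy1, a surface glycoprotein of fibroblasts, and the collagens are in that list, which shares members with the matrix lists. The summed level of the 13 was 7890 to 8127 FPKM with shCNKSR2_1 and 7274 to 7824 FPKM with shCNKSR2_2, so the sums did not overlap. With shControl it was 7143 to 7408 FPKM, below shCNKSR2_1 and overlapping shCNKSR2_2. Taken gene by gene, the median change of the 13 from shControl was 0.0205 with shCNKSR2_1 and -0.457 with shCNKSR2_2, so the sum does not stand for the typical marker. In bulk RNA fewer cells of a type and less RNA per cell cannot be told apart. Of 4 measured adipocyte markers Retn, Lpl and Lipe fell and Fabp4 did not pass the test (0.13), while Adipoq, Plin1 and Pparg were not in the table.

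**Figure D3:**
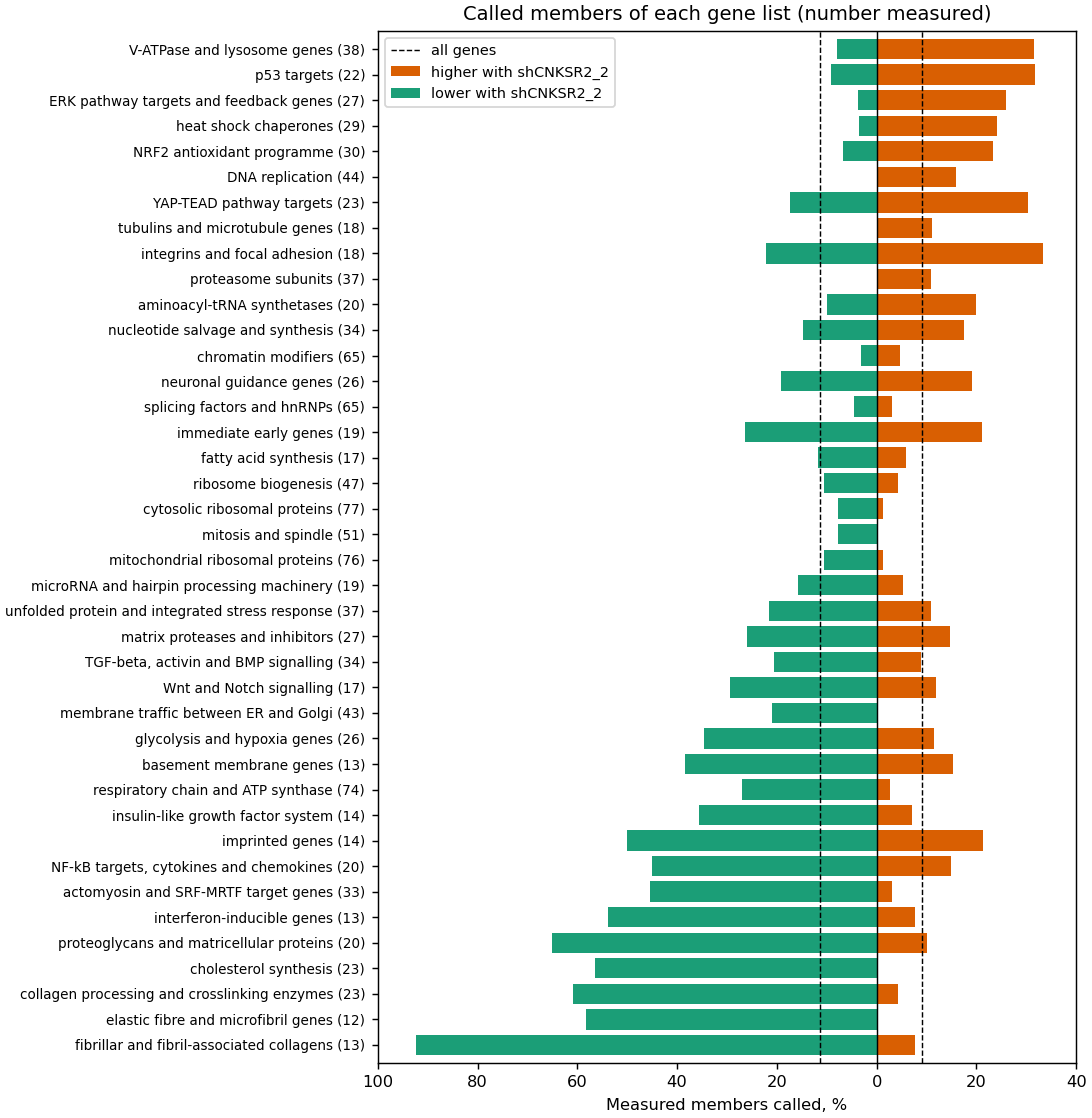
For each gene list with its number of measured members, the share called higher (right) and lower (left) with shCNKSR2_2, with dashed lines at the shares over all genes, 9.13% and 11.4%. The fibrillar and fibril-associated collagens, of which 12 of 13 were lower, reach farthest to the left of the lists drawn.

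Contractile genes were lower in part. Of 33 actomyosin genes and targets of the transcription factor SRF 15 fell and 1, Pdlim1, rose, with a median of -0.10. Leaving out shCNKSR2_2 replicate 2 left 8 of them lower and leaving out its replicate 3 left 9, and Pdlim1 was not called without its replicate 1. From shControl the list had a median change of 0.13 with shCNKSR2_1 and 0.016 with shCNKSR2_2, beside -0.0246 and -0.0288 over all genes. Acta2, the smooth muscle actin that marks contractile fibroblasts, was at 75.3, 82.2 and 83.8 FPKM with shControl, at 90.04, 90.7 and 92.8 FPKM with shCNKSR2_1 and at 48.6, 44.7 and 44.5 FPKM with shCNKSR2_2. The 3 groups did not overlap, and the hairpins differed by -0.98 ± 0.05 (SE; limma adjusted p = 2.45e-06). Myl9, a regulatory light chain of myosin, was at 5.95, 4.98 and 5.13 FPKM with shCNKSR2_1 and at 2.92, 2.28 and 2.59 FPKM with shCNKSR2_2, a difference of -0.82 (limma adjusted p = 0.000662). It stood above shControl (1.71 to 2.65 FPKM) with shCNKSR2_1, and the shCNKSR2_2 libraries overlapped shControl. The cytoplasmic actins Actb (-0.01) and Actg1 (0.00) did not pass the test.

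SRF binds the CArG box, and TEAD factors, partners of YAP, bind GGAATG. The CArG box was searched for as CCWWWWWWGG, where W is A or T, and boxes with a mismatch were not counted. Promoter windows of 250 bases before to 50 after a transcript start were in RefSeq (build GRCm38.p6) for 14 of the 16 called actomyosin genes, and both strands were searched. A CArG box was found in 3 of the 14, Fhl2, Myl9 and Vcl, and in 1.63% of the 32851 windows of the table. GGAATG was found in 6 of the 14 and in 14.7% of all windows, and a gene with several windows counts once if any holds the motif. Of 56 called matrix genes only 33 had a window, and of these 33 none held a CArG box and 5 held GGAATG. The SP1 motif GGGCGG was in 12 of the 14 and 26 of the 33, and in 35.7% of all windows, and the AP-1 motif TGANTCA in 2 and 1, and in 7.81%. Shares of all windows count single windows, not genes. The 250 bases before the start are shown for the genes with a CArG box, in capitals, and for Acta2. Acta2 differed most in the list, and its capitals mark GGAATG. Its window also holds ccctatatgg and ccttgtttgg, each 1 base away from the CArG pattern and so not counted. Myl9 lies at chr2:156775214-156775463 on the plus strand, Vcl at chr14:20929148-20929397 on the plus strand, Fhl2 at chr1:43196762-43197011 on the minus strand and Acta2 at chr19:34255374-34255623 on the minus strand.
Myl9: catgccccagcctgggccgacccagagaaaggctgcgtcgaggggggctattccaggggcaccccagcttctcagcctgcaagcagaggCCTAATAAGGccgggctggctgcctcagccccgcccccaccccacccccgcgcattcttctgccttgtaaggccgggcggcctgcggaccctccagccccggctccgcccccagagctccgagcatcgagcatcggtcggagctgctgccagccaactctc
Vcl: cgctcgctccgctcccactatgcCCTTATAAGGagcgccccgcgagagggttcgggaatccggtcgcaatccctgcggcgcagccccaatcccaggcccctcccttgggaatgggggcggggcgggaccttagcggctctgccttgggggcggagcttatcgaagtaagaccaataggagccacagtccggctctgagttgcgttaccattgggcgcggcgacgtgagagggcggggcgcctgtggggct
Fhl2: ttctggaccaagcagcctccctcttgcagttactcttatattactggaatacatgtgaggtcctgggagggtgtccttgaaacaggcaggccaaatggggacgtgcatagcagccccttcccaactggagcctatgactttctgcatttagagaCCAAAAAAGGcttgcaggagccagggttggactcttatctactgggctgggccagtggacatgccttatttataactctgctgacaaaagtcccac
Acta2: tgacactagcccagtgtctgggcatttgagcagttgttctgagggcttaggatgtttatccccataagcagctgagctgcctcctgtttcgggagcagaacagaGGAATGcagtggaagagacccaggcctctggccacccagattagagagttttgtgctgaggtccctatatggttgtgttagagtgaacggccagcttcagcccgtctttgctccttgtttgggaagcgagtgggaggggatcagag
Fhl2, a LIM-domain coactivator, fell by 0.24 (limma adjusted p = 0.00355) and Vcl, vinculin, which ties adhesions to actin, by 0.10 (adjusted p = 0.0406), and both are named here for the motif and not for their size. The call for Vcl was lost without shCNKSR2_1 replicate 1 (adjusted p = 0.0805). A match to these letters is a description of the window, and binding was not measured.

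Integrins and focal adhesion genes gave 6 higher and 4 lower of 18. Without shCNKSR2_2 replicate 3 these were 3 and 2, and without its replicate 2 the number lower was 2. Itga6, a laminin receptor subunit, was at 15.4, 19.5 and 17.7 FPKM with shCNKSR2_1 and at 25.07, 25.5 and 25.9 FPKM with shCNKSR2_2, 0.52 higher (limma adjusted p = 0.000526). Itgb7 rose by 0.58 and Itgb5, which pairs with the alpha V subunit, fell by 0.41. Targets of YAP and TEAD gave 7 higher and 4 lower of 23, 3 higher without shCNKSR2_2 replicate 1 and 2 lower without shCNKSR2_1 replicate 1 or shCNKSR2_2 replicate 2. With the 3 GC-linked libraries left out there were 2 in each direction. In this list F3, tissue factor, fell by 0.34 and Wwc1, which encodes the protein KIBRA of the Hippo pathway, rose by 0.37.

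Of 14 measured genes of the insulin-like growth factor system 5 fell and 1 rose, the same counts without any 1 library. The ligand Igf2 was at 9.06 to 9.87 FPKM with shControl, at 16.4, 10.7 and 11.53 FPKM with shCNKSR2_1 and at 3.02, 3.01 and 3.10 FPKM with shCNKSR2_2. The 3 groups did not overlap, shCNKSR2_1 being the highest, and the hairpins differed by -1.76 ± 0.11 (SE; limma adjusted p = 1.5e-05). Of the binding proteins Igfbp4 (-1.38), Igfbp7 (-0.51) and Igfbp6 (-0.32) fell, as did Pappa (-0.25), a protease that cuts Igfbp4. Igf2r, the receptor that clears the ligand, rose by 0.37. The signalling receptors Igf1r (-0.06) and Insr (0.03) did not pass the test.

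Igf2 and Igf2r are imprinted, expressed from 1 parental copy, and of 14 imprinted genes measured 7 fell and 3 rose. Meg3 and Rian, noncoding RNAs of 1 cluster with the protein-coding gene Dlk1, fell together with it by 0.57, 0.48 and 0.26. Meg3 was at 49.6, 39.4 and 43.2 FPKM with shCNKSR2_1 and at 28.7, 30.3 and 28.7 FPKM with shCNKSR2_2, the latter overlapping the 26.8 to 29.6 FPKM of shControl. Plagl1, an imprinted zinc finger factor, rose by 0.60, from 7.11 to 8.37 FPKM in the shCNKSR2_1 libraries to 11.8 to 13.2 FPKM in the shCNKSR2_2 libraries. Peg3 (-0.00), Grb10 (-0.05), Ndn (-0.07) and Snrpn (0.10) did not pass the test. Without shCNKSR2_2 replicate 2, and likewise without its replicate 3, 4 imprinted genes were lower.

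Of 20 NF-kB targets, cytokines and chemokines 9 fell and 3 rose between the hairpins, and the median change of the list from shControl was -0.478 with shCNKSR2_1 and -0.515 with shCNKSR2_2. Cxcl5, which attracts neutrophils, was at 475 to 502 FPKM with shControl, at 35.0, 28.0 and 30.7 FPKM with shCNKSR2_1 and at 15.6, 15.1 and 15.7 FPKM with shCNKSR2_2. The hairpin groups did not overlap and differed by -0.96 ± 0.06 (SE; limma adjusted p = 1.64e-05), beside changes from shControl of -3.93 and -4.89. Ccl7 and Ccl2, which attract monocytes, fell by 0.94 and 0.64 between the hairpins, and Cxcl12, the ligand of Cxcr4, by 1.04. The transcription factors Relb (0.24) and Nfkb2 (0.14) rose, but the number higher in the list was 1 without any of 6 libraries, which were shControl replicates 1 and 2, shCNKSR2_1 replicate 1 and each of shCNKSR2_2. Interferon-inducible genes gave 7 lower and 1 higher of 13, with Ifi27l2a (-0.79) and Isg20 (-0.48) lower and Ifit2 (0.34) higher.

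In the list of targets and feedback genes of the ERK pathway 7 rose and 1 fell of 27, with a median of 0.13 that was 0.0287 without shCNKSR2_1 replicate 1. With the 3 GC-linked libraries left out, 1 was higher and 2 were lower. Without shCNKSR2_1 replicate 2 the number higher was 11, and without shCNKSR2_2 replicate 2, or its replicate 3, it was 4, while the number lower was 3 without shCNKSR2_1 replicate 1 or 2 and 2 without shCNKSR2_2 replicate 1. Dusp4, a phosphatase that switches ERK off, was at 10.7 to 11.3 FPKM with shControl, at 13.1, 21.8 and 19.9 FPKM with shCNKSR2_1 and at 28.2, 28.2 and 29.7 FPKM with shCNKSR2_2. The hairpin groups did not overlap, with shCNKSR2_1 replicate 1 the nearest of its group to shControl. The difference was 0.65 ± 0.13 (SE; limma adjusted p = 0.00707), 0.44 without that library, and was lost with the 3 GC-linked libraries left out (adjusted p = 0.0608). Hmga1 (0.58), an architectural chromatin protein, Hmga2 (0.41), its relative, and Ccnd1 (0.39), cyclin D1, rose too. Egr1, an immediate early transcription factor, fell by 0.35, from 37.0 to 39.7 FPKM in the shCNKSR2_1 libraries to 28.6 to 31.1 FPKM in the shCNKSR2_2 libraries. The list of immediate early genes was mixed, with 4 higher and 5 lower of 19, Klf4 (0.44) rising and Nr4a1 (-0.38) and Btg2 (-0.59) falling. The number higher was 2 without shCNKSR2_2 replicate 1 or 2 and 1 without its replicate 3.

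Of the smaller signalling lists, TGF-beta, activin and BMP genes gave 7 lower and 3 higher of 34, and Wnt and Notch genes 5 lower and 2 higher of 17. The TGF-beta counts were 4 lower without shCNKSR2_1 replicate 1 or 2 or shCNKSR2_2 replicate 2 or 3, and 1 higher without shCNKSR2_1 replicate 1 or any shCNKSR2_2 library but 5 higher without shCNKSR2_1 replicate 2. The Wnt and Notch counts were 3 lower without shCNKSR2_1 replicate 1 or shCNKSR2_2 replicate 2 or 3, and 1 higher without shCNKSR2_1 replicate 1 or any shCNKSR2_2 library. Tgfbr3, the coreceptor betaglycan, fell by 0.34, and Fzd1, a Wnt receptor, by 0.44. Guidance genes gave 5 in each direction of 26, with 3 lower without shCNKSR2_1 replicate 3 or shCNKSR2_2 replicate 2 or 3. Among them Sema3c, a secreted semaphorin, was at 1.30, 1.70 and 1.36 FPKM with shCNKSR2_1 and at 2.56, 3.15 and 2.93 FPKM with shCNKSR2_2, 0.66 higher, while both hairpins left it below the 8.59 to 9.80 FPKM of shControl.

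Among metabolic genes the enzymes of cholesterol synthesis leaned to 1 side, with 13 lower and 0 higher of 23 and a median of -0.17. Mvd, which makes isopentenyl diphosphate, was at 15.9 to 18.1 FPKM with shControl, at 23.1, 20.3 and 21.1 FPKM with shCNKSR2_1 and at 17.1, 15.9 and 17.0 FPKM with shCNKSR2_2. Its difference was -0.35 ± 0.06 (SE; limma adjusted p = 0.00206), and its shCNKSR2_2 libraries lay within the shControl range. The list as a whole stood above shControl with both hairpins. Its median change was 0.293 with shCNKSR2_1 and 0.114 with shCNKSR2_2, beside -0.0246 and -0.0288 over all genes. Pmvk (-0.33), Dhcr7 (-0.31) and Hsd17b7 (-0.31) fell as well. Between 9 and 14 members were lower when 1 library at a time was left out. Glycolysis and hypoxia genes gave 9 lower and 3 higher of 26, Pdk1 (-0.48) and Bnip3 (-0.44) among the lower, and 4 were lower without shCNKSR2_2 replicate 2, 5 without its replicate 3 or shCNKSR2_1 replicate 3.

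Fatty acid synthesis gave 2 lower and 1 higher of 17, Scd2, a desaturase, falling by 0.36, and 0 were higher without any 1 of 7 libraries, all but shControl replicate 3 and shCNKSR2_1 replicate 2, while 4 were lower without shCNKSR2_1 replicate 3. Genes of the antioxidant programme of NRF2 gave 7 higher and 2 lower of 30, and 4 lower without shCNKSR2_1 replicate 1. Sqstm1, an autophagy receptor that is also an NRF2 target, was at 209, 248 and 253 FPKM with shCNKSR2_1 and at 345, 311 and 310 FPKM with shCNKSR2_2, 0.44 higher (limma adjusted p = 0.00138). Genes of nucleotide synthesis and salvage gave 6 higher and 5 lower of 34, led by Upp1, described below.

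Genes of the lysosome and of its proton pump, the V-ATPase, tended the other way, with 12 higher and 3 lower of 38 and a median of 0.07. Npc1, which moves cholesterol out of lysosomes, was at 8.62, 9.99 and 9.62 FPKM with shCNKSR2_1 and at 12.7, 12.6 and 12.4 FPKM with shCNKSR2_2. The groups did not overlap, shCNKSR2_1 spanned the 9.66 to 9.96 FPKM of shControl, and the difference was 0.39 ± 0.05 (SE; limma adjusted p = 0.000526). Atp6v0b, a pump subunit, rose by 0.30. Mitf, a transcription factor of lysosomal and pigment genes, fell by 0.46. With 1 library left out, 8 to 11 of the list were higher, and 5 were lower without shCNKSR2_1 replicate 2.

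Of 29 heat shock chaperones 7 rose and 1 fell, among them Hsp90aa1 (0.27) and the small heat shock protein gene Cryab (0.54). Proteasome subunits gave 4 higher and 0 lower of 37. Of these 1 was higher without shCNKSR2_2 replicate 2 or 3, 2 without shControl replicate 2 or shCNKSR2_1 replicate 1, and 7 without shCNKSR2_1 replicate 2. The unfolded protein and integrated stress response gave 8 lower and 4 higher of 37, with Xbp1 (-0.23) lower and Dnajb9 (0.31) higher. The number lower was 5 without shCNKSR2_1 replicate 3 or shCNKSR2_2 replicate 2 and 4 without shCNKSR2_2 replicate 3, and the number higher was 2 without shCNKSR2_1 replicate 1 or any shCNKSR2_2 library. Membrane traffic between endoplasmic reticulum and Golgi gave 9 lower and 0 higher of 43, and 3 were lower without shCNKSR2_2 replicate 2, 4 without its replicate 3 and 5 without shCNKSR2_1 replicate 3.

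Respiratory chain and ATP synthase subunits gave 20 lower and 2 higher of 74, with a median of -0.09. That count ranged from 8 to 27 when 1 library at a time was left out, being 13 without shCNKSR2_1 replicate 1, 12 without its replicate 3, 8 without shCNKSR2_2 replicate 2 and 9 without its replicate 3, and 1 was higher without any 1 library except shControl replicate 3 and shCNKSR2_1 replicate 3. Cytosolic ribosomal proteins gave 6 lower and 1 higher of 77 and mitochondrial ones 8 and 1 of 76, beside the 20.5% called over all genes. Without shCNKSR2_1 replicate 3, shCNKSR2_2 replicate 2 or shCNKSR2_2 replicate 3 the number lower was 2, 3 and 2 for the cytosolic and 4, 3 and 4 for the mitochondrial ones, and the number of cytosolic ones higher lay between 0 and 3. Chromatin modifiers gave 3 higher and 2 lower of 65, splicing factors 2 and 3 of 65, ribosome biogenesis genes 2 and 5 of 47 and aminoacyl-tRNA synthetases 4 and 2 of 20. Calls in these last lists were few, and each of those counts except the chromatin modifiers higher moved by more than 1.5 times without shCNKSR2_2 replicate 3, among other libraries. Without it the lists in that order gave 0 lower for the chromatin modifiers, 1 in each direction for the splicing factors, 0 higher and 3 lower for ribosome biogenesis and 1 in each direction for the synthetases. The synthetases gave 2 higher and 4 lower without shCNKSR2_1 replicate 1.

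DNA replication genes gave 7 higher and 0 lower of 44, and 2 were higher without shCNKSR2_2 replicate 2 or 3 and 3 without shCNKSR2_1 replicate 1. The median change of that list from shControl was -0.0883 with shCNKSR2_1 and -0.00677 with shCNKSR2_2, beside -0.0246 and -0.0288 over all genes. Mitosis and spindle genes gave 4 lower and 0 higher of 51, with 2 lower without any 1 shCNKSR2_2 library and 8 without shCNKSR2_1 replicate 2. Targets of p53 gave 7 higher and 2 lower of 22, with 3 higher without shCNKSR2_2 replicate 2, 4 without shCNKSR2_1 replicate 1 and 4 lower without shCNKSR2_1 replicate 2. Against shControl the p53 targets were lower with both hairpins, with medians of -0.177 for shCNKSR2_1 and -0.149 for shCNKSR2_2. Mdm2, which degrades p53, was at 25.7, 29.2 and 27.5 FPKM with shCNKSR2_1 and at 35.0, 34.9 and 35.3 FPKM with shCNKSR2_2, 0.34 higher (limma adjusted p = 0.000775), and Fas, the death receptor, fell by 0.41. Of 19 genes that process microRNAs and hairpins 3 fell and 1 rose, the latter Dicer1 (0.21), with 3 higher without shCNKSR2_1 replicate 2, and of 18 tubulin and microtubule genes 2 rose.

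The hairpins moved 45 genes (0.435% of those tested) in opposite directions from shControl, each change called by itself. Of these 24 (0.232%) were higher with shCNKSR2_1 and lower with shCNKSR2_2, and 21 (0.203%) were the reverse. Both changes use the same control libraries, and the members were picked by them, so the values are a description, and the difference between the hairpins, called in all 45, follows from the choice. In 42 of the 45 the 3 groups did not overlap. With no test, 161 genes (1.56%) had 3 such groups in opposite order, 77 (0.745%) with shCNKSR2_1 above and shCNKSR2_2 below shControl and 84 (0.812%) the reverse. The count of 45 was 22, 23 and 27 without shControl replicates 1, 2 and 3 and 29 without shCNKSR2_2 replicate 3. Without shCNKSR2_1 replicate 1, 36 were still opposite, and 14 were opposite in each of the 9 fits that left out 1 library. The changes were mostly small, and none of the 45 passed 1.5-fold in both directions.

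Those higher with shCNKSR2_1 and lower with shCNKSR2_2 included the growth factor gene Igf2 and the actin gene Acta2, described above, the collagen gene Col12a1 and Tagln. Tagln, an actin-binding protein of contractile cells, was at 36.6, 39.7 and 40.6 FPKM with shControl, at 41.7, 50.7 and 49.4 FPKM with shCNKSR2_1 and at 31.7, 32.0 and 31.04 FPKM with shCNKSR2_2. The 3 groups did not overlap, with changes of 0.27 ± 0.07 and -0.29 ± 0.07 (SE) from shControl. Ctsk, cathepsin K, a protease that degrades collagen, was at 1.67 to 1.92 FPKM with shControl, at 2.15, 2.34 and 2.13 FPKM with shCNKSR2_1 and at 1.11, 1.16 and 1.04 FPKM with shCNKSR2_2, close to the lowest level the table holds. Nrp1, a coreceptor for semaphorins and VEGF, was at 28.5 to 29.6 FPKM with shControl, at 32.6 to 38.6 FPKM with shCNKSR2_1 and at 23.5 to 25.8 FPKM with shCNKSR2_2. Tagln, Ctsk and Nrp1 were opposite in all 9 fits that left out 1 library.

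Others of this pattern were less firm. Igf2 changed by 0.37 and -1.38 from shControl and was opposite in 6 of the 9 fits. Col12a1, a fibril-associated collagen, changed by 0.51 and -0.27 and was opposite in 3, as was Thbs1, thrombospondin-1, which changed by 0.22 and -0.38. Mapkapk3, a kinase downstream of p38, changed by 0.25 and -0.45 and was opposite in 5, and without shCNKSR2_1 replicate 1 it was not. Isg20, an interferon-induced exonuclease, changed by 0.28 and -0.20 and was opposite in 5, and its shCNKSR2_2 libraries overlapped shControl.

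In the reverse pattern Ackr3, a receptor that scavenges Cxcl12, was at 23.8, 25.11 and 24.1 FPKM with shControl, at 19.1, 18.7 and 19.1 FPKM with shCNKSR2_1 and at 29.2, 29.4 and 27.7 FPKM with shCNKSR2_2. The 3 groups did not overlap, with changes of -0.34 ± 0.04 and 0.23 ± 0.04 (SE) from shControl. Ttc13, a tetratricopeptide repeat protein, was at 17.2 to 17.6 FPKM, 13.9 to 14.1 FPKM and 20.5 to 20.8 FPKM in that order. Fyn, a kinase of the Src family, was at 15.5 to 16.4 FPKM, 12.7 to 13.6 FPKM and 18.3 to 19.95 FPKM. Gdnf, a neurotrophic factor, changed by -0.32 and 0.28 and Ero1lb, an oxidase of the endoplasmic reticulum, by -0.24 and 0.24. Serpinb9b, an inhibitor of serine proteases, changed by -0.23 and 0.23. All 6 of these genes were opposite in each of the 9 fits.

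Upp1, uridine phosphorylase, which breaks down uridine, had the widest difference of this pattern. It was at 5.10, 5.30 and 5.07 FPKM with shControl, at 3.09, 4.84 and 4.05 FPKM with shCNKSR2_1 and at 9.14, 8.50 and 8.78 FPKM with shCNKSR2_2. The changes from shControl were -0.32 and 0.67, and it was opposite in 5 of the 9 fits. Cd109, a surface protein that binds TGF-beta, changed by -0.20 and 0.20 and was opposite in 6, and its shCNKSR2_1 libraries overlapped shControl. RefSeq windows were available for 11 of the 16 named genes of both patterns. A CArG box was found in 1 of them, Igf2, and GGAATG in 2, Igf2 and Upp1. GGGCGG was found in 5, TGANTCA in 1 and TATAAA, found in 13.6% of all windows, in 2. Igf2 has 4 windows and Upp1 has 3, while shares of all windows count single windows.

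**Figure D4:**
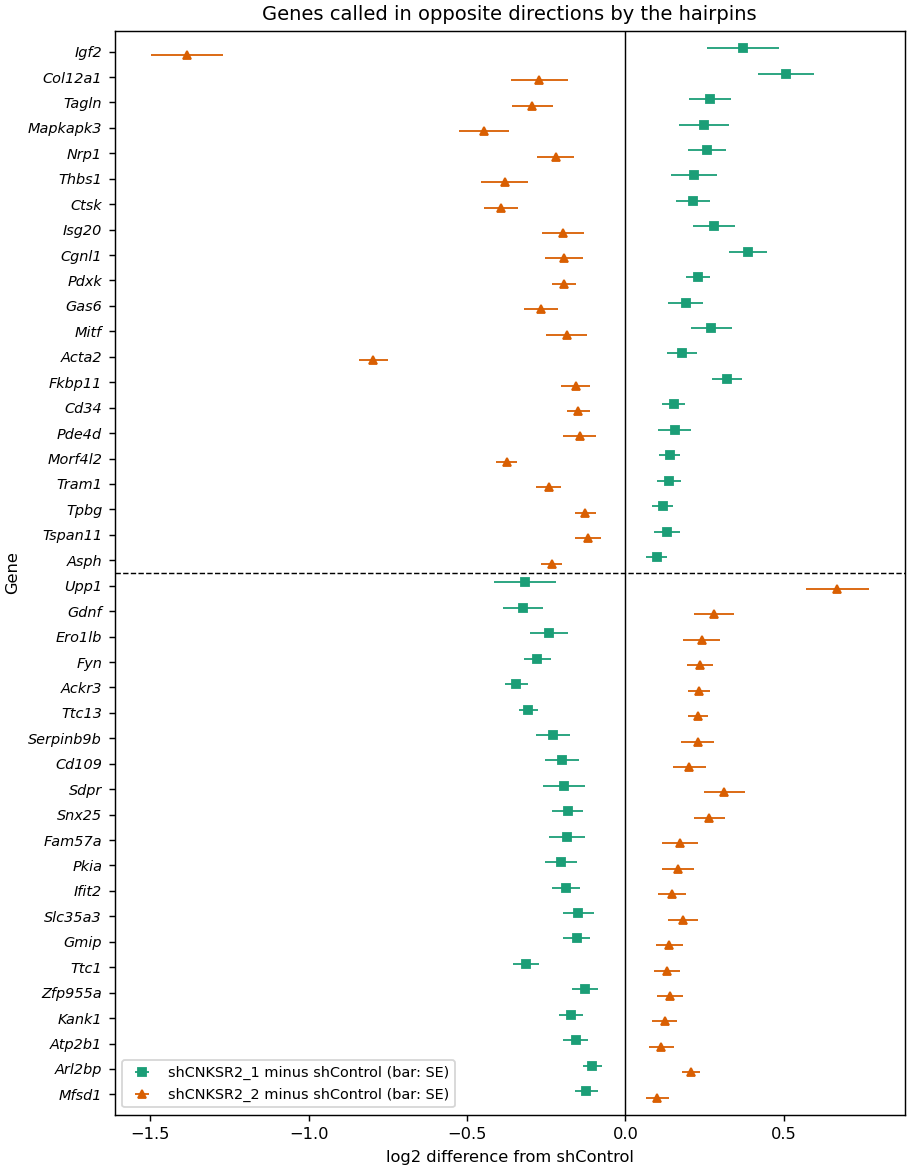
Log2 change from shControl with each hairpin (points, bars are SE of the fit) for the genes called in opposite directions, apart from 3 that have only a clone-style symbol. Genes above the dashed line were higher with shCNKSR2_1 and lower with shCNKSR2_2, those below it the reverse, and Igf2, Acta2 and Upp1 are the widest.

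The differences were also uneven along the genome, by the chromosome that the reference annotation gives for 10288 of the genes. On chromosome 1, 156 genes were lower and 23 higher of 581, a called share of 30.8% against 20.5% of all genes, and on chromosome 6, 112 were lower and 18 higher of 498. Chromosomes 10 and 12 leaned the other way, with 98 higher and 33 lower of 508 and 71 higher and 25 lower of 365. Chromosome 15, with 65 lower and 23 higher of 406, and chromosome 2, with 110 lower and 47 higher of 818, leaned to the lower side. Chromosome 3, with 72 higher and 48 lower of 502, and chromosome 19, with 49 higher and 25 lower of 371, leaned to the higher. Called shares were 26.1% on chromosome 6, 25.8% on chromosome 10 and 26.3% on chromosome 12. They were 21.7% on chromosome 15, 19.2% on chromosome 2, 23.9% on chromosome 3 and 19.9% on chromosome 19. The X chromosome, on which Cnksr2 lies, gave 37 higher and 33 lower of 333. Counts without shCNKSR2_2 replicate 2 and without its replicate 3 follow in that order. Lower were 64 and 67 on chromosome 6, 40 and 39 on chromosome 15 and 60 and 60 on chromosome 2. Higher were 58 and 57 on chromosome 10, 37 and 34 on chromosome 12 and 33 and 30 on chromosome 3. On chromosome 19, 27 and 26 were higher, and on the X 21 and 22. Over all genes these fits called 731 and 705 lower and 500 and 503 higher. On chromosome 6, 28 were higher without shCNKSR2_1 replicate 2 and 10 without shCNKSR2_2 replicate 2. On chromosome 1, 105 to 151 were lower with any 1 library left out, and 10 to 29 higher.

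The shifts were small per gene and alike in the libraries of a group. On chromosome 1 the median difference from the shControl mean was -0.0904, -0.0687 and -0.0699 in the shCNKSR2_2 libraries and between -0.0072 and 0.0149 in the shCNKSR2_1 libraries, with the shControl libraries between -0.0132 and 0.0078. The shCNKSR2_2 libraries thus stood below both other groups. On chromosome 6 it was the shCNKSR2_1 libraries that stood farthest from shControl, with a group median of 0.0448 against -0.0247 for shCNKSR2_2. Over a running median of 51 genes, runs of at least 20 genes beyond 0.1 were found on both. From Gpr161 to Dcaf8 on chromosome 1, 20 of 40 genes fell and 0 rose, with a median of -0.148. From Wnk1 to Tapbpl on chromosome 6, 19 of 45 fell and 0 rose, with a median of -0.119.

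When the median of the 50 nearest genes was subtracted from each gene in each library, an alternative chosen after seeing the data, 2041 genes were called, 1681 of them with the same call as before. Chromosome 1 then gave 69 lower and 60 higher and chromosome 6 gave 54 and 49. The counts for the matrix were little altered, at 11 lower and 1 higher of the 13 collagens, as were those for cholesterol synthesis, at 14 and 0 of 23. DNA replication genes gave 12 higher of 44 in that fit, against 7. Of the 45 opposite genes 32 were opposite in both fits. What shifts whole chromosomes between these cultures was not tested.

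**Figure D5:**
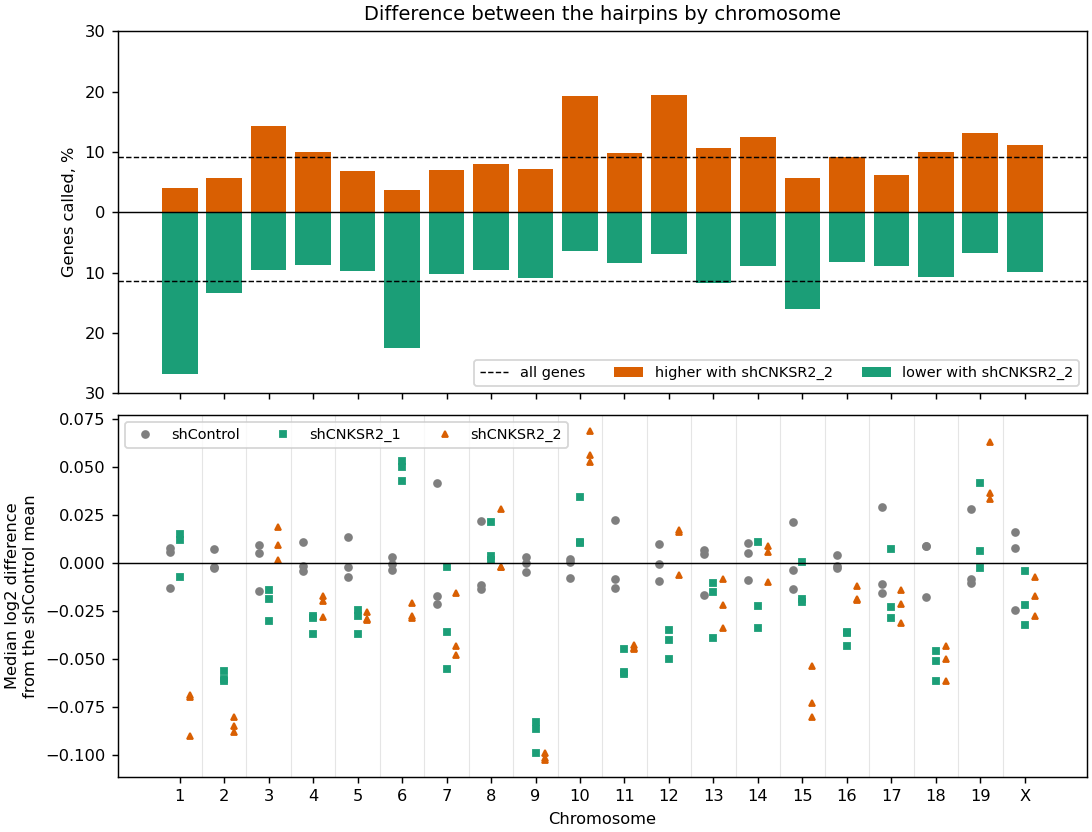
Top, the share of genes on each chromosome called higher or lower with shCNKSR2_2, with dashed lines at the shares over all genes. Bottom, the median log2 difference from the shControl mean over the genes of each chromosome, 1 point per library, in which the libraries of the hairpins do not overlap on chromosomes 1, 6, 10, 12 and 15, among others.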

How the data were processed

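RNA of 9 NIH 3T3 libraries, 3 per group, was isolated with Qiagen miRNeasy and made into TruSeq Stranded mRNA libraries, per the labels' protocols. The deposited values are FPKM. Per the submitters' processing notes STAR 25.1b, Cufflinks 2.2.1 and build mm9 were used, with the role of each and the annotation not given in the sources used here. Each of the 10340 genes, identified by symbol, exceeds 1 FPKM in every library (lowest 1.00 FPKM), so genes below that level in any library were out of reach. The table holds no fragment counts, and library depth, and with it any interval for counting error, is therefore unknown.

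Values were taken to log2(FPKM + 1) and a model with a mean for each of 3 groups was fitted by lmFit and eBayes (trend=TRUE) of limma 3.58.1 in R 4.3.3, with 6 degrees of freedom left. All tests are two-sided, with Benjamini-Hochberg adjustment over all genes within a contrast. A minimum mean of 1 FPKM removed 0 genes. The fit was tested on simulated data. SE is that of the fit and SD that of FPKM within a group.

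The comparison, its gene lists (40, with 10 further lists of cell type markers) and its tests were chosen with earlier results of these data known, so counts over a list are descriptions. Lists with at least 4 measured members are described. Genes named are the 12 called genes farthest apart in each direction, the 8 opposite genes of each pattern with the largest smaller change, and up to 4 called genes per list by size; genes with clone-style symbols were passed over. Others named within a list, by their place in it, were chosen after their values were seen.

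Deviations of same-numbered libraries from their group means had correlations of 0.12, 0.185 and 0.428 between shControl and shCNKSR2_1. Between the hairpins these were -0.127, 0.138 and -0.162. Libraries of unlike number reached similar values. The correlation was 0.445 for shControl replicate 3 and 0.393 for shCNKSR2_1 replicate 3, each with shCNKSR2_2 replicate 1. The replicate numbers therefore give no ground for pairing. Alternatives (pseudocount, minimum level, scaling, GC trend, replicate block, each library left out, neighbouring genes) are in the closing section. Chromosome, gene order and GC content (10288 genes, 99.5%) came from GENCODE vM21 on GRCm38 by symbol, and promoter sequences from RefSeq GRCm38.p6. Neither is the submitters' build, so no coordinates of genes are given beyond the RefSeq windows.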

Additional observations from a re-analysis of the deposited data

Results flagged for a closer look

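The 16 named genes are listed here because both changes from shControl were called, with opposite signs. The contrast between the hairpins was called in each as well, which follows from that choice. They were chosen by those changes, so the differences, given as shCNKSR2_2 minus shCNKSR2_1 on the log2(FPKM + 1) scale, are a description. Among matrix, contractile and growth factor genes the difference was -1.76 for Igf2, -0.778 for Col12a1, -0.562 for Tagln, -0.598 for Thbs1 and -0.607 for Ctsk. It was -0.693 for the kinase gene Mapkapk3, -0.478 for the coreceptor gene Nrp1 and -0.477 for Isg20. In the reverse pattern it was 0.987 for Upp1, 0.602 for Gdnf, 0.483 for Ero1lb and 0.514 for Fyn. It was 0.577 for Ackr3, 0.536 for Ttc13, 0.456 for Serpinb9b and 0.402 for Cd109.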

How the results depend on the processing

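Of 4907 recomputed values, the differences between the hairpins of the 183 named genes and the changes from shControl of the named opposite genes, 4451 kept their direction and their side of the threshold, 456 kept the direction only and 0 reversed. Of 1932 recomputed list counts 339 moved by more than 1.5 times. A minimum change of 1.5-fold left 116 genes between the hairpins, 231 with shCNKSR2_1, 458 with shCNKSR2_2 and 0 opposite. Leaving out 1 library at a time gave 1208 to 2333 calls between the hairpins, 2504 to 3894 with shCNKSR2_1, 4075 to 5355 with shCNKSR2_2 and 22 to 67 opposite genes. The lowest opposite counts were 22, 23 and 27 without shControl replicates 1, 2 and 3, and 29 without shCNKSR2_2 replicate 3. The opposite count was 76 with the GC trend removed, 9 at an adjusted p under 0.01 and 161 (1.56% of genes) by groups that do not overlap with no test. In 2 alternatives chosen after seeing the data, shCNKSR2_1 replicate 1 alone for its group, assumed to vary like the others, gave 1860 calls with shCNKSR2_1 and 141 opposite genes. Leaving out the 3 GC-linked libraries gave 1230 between the hairpins and 16 opposite. Median-ratio rescaling and quantile normalization moved the share of calls between the hairpins that were higher from 44.5% to 45.9% and 50.4%. For shCNKSR2_1 against shControl that share moved from 41.4% to 53.4% under median-ratio rescaling, and for shCNKSR2_2 from 41.5% to 52.5% under quantile normalization. Same-numbered hairpin replicates deviated from their group means with correlations of -0.127, 0.138 and -0.162, so the numbers do not pair them. With the replicate block, 1944 genes were called between the hairpins, 3205 with shCNKSR2_1, 4827 with shCNKSR2_2 and 48 were opposite. The cause of these changes was not tested, apart from the smaller numbers of libraries or of genes allowed. Depth is unknown, and the floor at 1 FPKM limits what low genes such as Ctsk and Dio2 can show.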

Other observations

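The widest differences between the hairpins that were not called belonged to a small nucleolar RNA, Snord96a, and to Rps27rt, a near-identical copy of the ribosomal protein gene Rps27, all named here after their values were seen. Snord96a ranged from 179 to 2162 FPKM over the 6 libraries (log2 difference -1.14, limma adjusted p = 0.164). Rps27 was at 866, 1284 and 570 FPKM with shCNKSR2_1 and at 679, 1664 and 1557 FPKM with shCNKSR2_2, while Rps27rt was at 863, 536 and 1231 FPKM and at 1122, 262 and 327 FPKM. Where 1 copy was high in a library the other was low. Their sum was 1728 to 1820 FPKM with shCNKSR2_1 and 1801 to 1926 FPKM with shCNKSR2_2, and so varied far less than either copy.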
